A study of Mus musculus with 8 samples.

Results

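The Reg genes encode small secreted proteins with a single C-type lectin fold, named for the regenerating islet in which the family was found. The group described here was chosen by name, as Reg1, Reg2, Reg3a, Reg3b, Reg3d and Reg3g wherever they stood in the table of gene values. All 6 members were present among the 11789 genes listed and all 6 passed the filter on low values, which 10468 genes passed. Reg4, which lies outside the cluster of the other members, was not analysed here.

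Gene values came from RNA sequencing of total RNA from whole pancreas of mice aged 6 weeks, with 1 library per mouse. The labels name 4 libraries as Daxxfl/flPdx1-CreTg (DC), in which a Pdx1-Cre transgene deletes floxed Daxx, and 4 as wild type (WT). The Pdx1 promoter drives Cre in the embryonic cells that give rise to acinar, duct and islet cells. Vessels, stroma, immune cells and fat are not expected to lose Daxx, and no value here separates cell types. Among these samples there is no animal with the transgene alone or the floxed alleles alone, so the effect of Daxx loss cannot be told apart from that of the transgene or the alleles. Per the series' design text each genotype held both sexes, and no label says which library was from which sex.

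In the resting pancreas Reg1 and Reg2, also known as lithostathines or pancreatic stone proteins, are secreted by acinar cells into pancreatic juice. Reg3a, Reg3b and Reg3g were found as pancreatitis-associated proteins, low in the healthy gland and strongly induced in acinar cells by injury. Cytokines of the IL-6 family and IL-22 act on acinar cells through the transcription factor Stat3, a known route to Reg3 induction. In the gut, Reg3b and Reg3g are also made by the epithelium, where Reg3g kills Gram-positive bacteria.

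The 6 genes lie side by side on chromosome 6 between 78370657 and 78468872 (GRCm38), a span of 98.2 kb that holds no other annotated gene. In order along the chromosome they are Reg3b, Reg3d, Reg3a, Reg2, Reg1 and Reg3g, with 4 on the plus strand and Reg3d and Reg3g on the minus strand. Gaps between neighbouring genes ran from 1843 bp, between Reg3d and Reg3a, to 37601 bp, between Reg1 and Reg3g, so no members overlap. Their Ensembl IDs in the table are, in the same order, ENSMUSG00000071356.7, ENSMUSG00000068341.8, ENSMUSG00000079516.2, ENSMUSG00000023140.4, ENSMUSG00000059654.7 and ENSMUSG00000030017.2. The nearest other gene in the table on either side was 1873 kb (Gm9008) and 3455 kb (Gcfc2) away. Coding sequences of 498 to 528 bases were 78.7% identical between Reg1 and Reg2 and 75.9% identical between Reg3b and Reg3g. Reg3a stood at 73.3% to Reg3b and 72.9% to Reg3g, Reg3d at 65.4% to 65.8% to the other Reg3 genes, and Reg1 and Reg2 at 54.1% to 58.2% to all Reg3 genes. The longest identical run between any pair of reference transcripts was 35 bases, in Reg3b and Reg3g, and no run of 50 bases was shared. The sources used here do not state the read length or how reads matching more than 1 member were counted, so the division of reads among Reg3a, Reg3b and Reg3g carries that uncertainty.

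The 250 bases before the RefSeq transcript start of 4 members are shown, since these genes carry the likenesses reported for the family. For Reg2 and Reg3b that start lies inside the longer gene span given above. Reg3b and Reg3g are the pair with the most similar promoter letters, and Reg2 and Reg3d the pair whose RNA levels were most alike across animals. Sequences are from RefSeq (GRCm38.p6) and read 5′ to 3′ on the strand of the gene. Capitals mark matches on either strand to CACCTG (E box), TTTCCC (the TC box paired with an E box in sites of the acinar factor PTF1), TTCNNNGAA (STAT) and the core promoter element TATAAA. Reg3b is at chr6:78370635-78370884 (plus strand), Reg3g at chr6:78468875-78469124 (minus), Reg2 at chr6:78404905-78405154 (plus) and Reg3d at chr6:78378866-78379115 (minus).
Reg3b: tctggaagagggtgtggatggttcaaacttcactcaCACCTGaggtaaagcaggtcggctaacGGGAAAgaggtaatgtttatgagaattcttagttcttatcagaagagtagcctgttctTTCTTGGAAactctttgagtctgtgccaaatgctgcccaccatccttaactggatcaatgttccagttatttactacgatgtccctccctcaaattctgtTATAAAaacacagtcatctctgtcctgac
Reg3g: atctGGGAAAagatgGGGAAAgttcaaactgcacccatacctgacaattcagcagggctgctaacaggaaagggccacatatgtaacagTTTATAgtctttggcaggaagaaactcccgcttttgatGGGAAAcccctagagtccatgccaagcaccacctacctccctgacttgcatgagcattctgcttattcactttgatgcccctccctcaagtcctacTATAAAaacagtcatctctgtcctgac
Reg2: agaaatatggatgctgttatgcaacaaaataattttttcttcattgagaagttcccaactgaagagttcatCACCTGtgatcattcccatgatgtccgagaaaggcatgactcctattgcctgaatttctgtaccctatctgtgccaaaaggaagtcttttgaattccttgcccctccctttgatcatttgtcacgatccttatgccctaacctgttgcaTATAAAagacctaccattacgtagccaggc
Reg3d: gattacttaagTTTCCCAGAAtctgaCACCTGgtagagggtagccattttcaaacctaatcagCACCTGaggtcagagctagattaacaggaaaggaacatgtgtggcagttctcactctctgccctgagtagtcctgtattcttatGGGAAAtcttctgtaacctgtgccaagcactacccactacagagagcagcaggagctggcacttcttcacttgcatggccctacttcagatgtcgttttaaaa

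Over windows that also take in the first 50 bases after the start, the promoters of Reg3b and Reg3g were 68.1% identical, and the other 14 pairs were 46.0% to 55.3% identical. The alignments allowed gaps and identity between promoters of unrelated genes was not computed, so these values have no background here. CACCTG was found in Reg2, Reg3a, Reg3b and Reg3d, and in 20.2% of all 32851 promoter windows. TATAAA was found in Reg1, Reg2, Reg3b and Reg3g, in each at 27 to 30 bases before the start. Anywhere in the window and on either strand, it was in 13.6% of all windows. Reg3g also held a match on the opposite strand 161 bases before the start, and Reg1 one at base 36 after it. TTTCCC, a motif added after the data were seen, was found in Reg1, Reg3b, Reg3d and Reg3g and in 25.2% of all windows. TTCNNNGAA was found in Reg3b, 129 bases before the start, and in Reg3d, 238 bases before it, where it overlaps TTTCCC. It was in 8.30% of all windows. TGANTCA (AP-1) was found in Reg1, 117 bases before the start, and in 7.81% of windows, and CAGCTG, a second E box, in no member and in 16.3% of windows. A match is a run of letters and does not show that a factor binds.

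Libraries held 7705789 to 10517508 reads on the listed genes. Values are the deposited normalized read counts, each a library's reads divided by its size factor, and replicates are numbered in accession order. All 25 acinar markers of a list were present and Ctrb1, a chymotrypsinogen gene, led them. Of the markers of gut epithelium 4 of 20 were listed, of lymphocytes 1 of 12 and of neutrophils 0 of 10. Daxx averaged 28.0 ± 3.88 normalized counts in DC pancreas and 47.6 ± 8.02 in WT pancreas (SD, n = 4 each), and the groups did not overlap. The gene had only 26 to 31 reads in DC libraries and 45 to 51 in WT libraries. The log2 fold change of Daxx was -0.74 ± 0.20 (SE), with an exact permutation p of 0.0286 and a limma adjusted p of 0.9997. As a check for a library listed more than once, counts were compared within genotypes, and chi-square values of 6.81 to 25.27 for each degree of freedom showed no duplicate.

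Reg transcripts were abundant. Together the 6 genes took 0.709% to 1.82% of all reads in DC libraries and 0.721% to 1.93% in WT libraries. The lowest share, in DC replicate 3, had an exact binomial 95% interval of 0.704% to 0.715%, and the highest, in WT replicate 1, one of 1.92% to 1.93%. These intervals cover counting error only. Reg1 supplied most of these reads in every library. Without it the share was 0.0564% to 0.692% in DC libraries and 0.0619% to 0.669% in WT libraries, so the members other than Reg1 together varied over 10-fold within each genotype. Most of that share was Reg2 in every library, so the range is mainly that of Reg2.

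Reg1 encodes the main lithostathine of acinar cells. Its normalized counts were 90082, 103250.3, 58137 and 91148 in DC replicates 1 to 4, and 116559, 66223, 120405 and 104185 in WT replicates 1 to 4. Each genotype held 1 library well below its other 3, DC replicate 3 and WT replicate 2, and the groups overlapped.

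Reg2 encodes a closely related lithostathine. It had 48947, 29833, 4221 and 3497 normalized counts in DC replicates 1 to 4, and 53273, 4248, 38026 and 18386 in WT replicates 1 to 4. DC replicates 3 and 4 and WT replicate 2 were low and close to each other, while the other 5 libraries were at least several-fold higher. The range covered 14.0-fold in DC and 12.5-fold in WT libraries. Reg2 stood at 4.23% to 59.9% of Reg1 in DC libraries and at 7.07% to 50.4% of it in WT libraries, both per kilobase of transcript.

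Reg3d, also called INGAP-related protein for its likeness to a hamster islet neogenesis protein, varied less. It had 2577, 2357, 1117 and 1212 normalized counts in DC replicates 1 to 4, and 3268, 1028, 3343 and 2149 in WT replicates 1 to 4. The same 3 libraries that were low in Reg2 were the lowest here, and the range was 2.31-fold in DC and 3.25-fold in WT libraries.

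Reg3b encodes the protein first isolated as pancreatitis-associated protein. It had 2391, 1073, 252 and 816 normalized counts in DC replicates 1 to 4, and 3479, 698, 4734 and 868 in WT replicates 1 to 4. WT replicates 1 and 3 and DC replicate 1 were high, DC replicate 3 was lowest, and the groups overlapped.

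Reg3a, a further pancreatitis-associated protein, had 1100.4, 461, 98.9 and 139.6 normalized counts in DC replicates 1 to 4, and 1798.5, 198, 2527 and 175 in WT replicates 1 to 4. Its range was 11.1-fold in DC and 14.4-fold in WT libraries, against 9.49-fold and 6.78-fold for Reg3b. WT replicates 2 and 4 fell among the low DC libraries.

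Reg3g, the antibacterial lectin, was the least abundant member. It had 115, 50.8, 31.2 and 103 normalized counts in DC replicates 1 to 4, and 165, 53.5, 204 and 33.6 in WT replicates 1 to 4. These rest on 30 to 210 reads, where counting error alone gives an SD of 0.18 on the log2 scale. DC replicate 4 was the fourth highest library and WT replicate 4 the second lowest, whereas these libraries were close to each other in Reg3b.

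**Figure D1:**
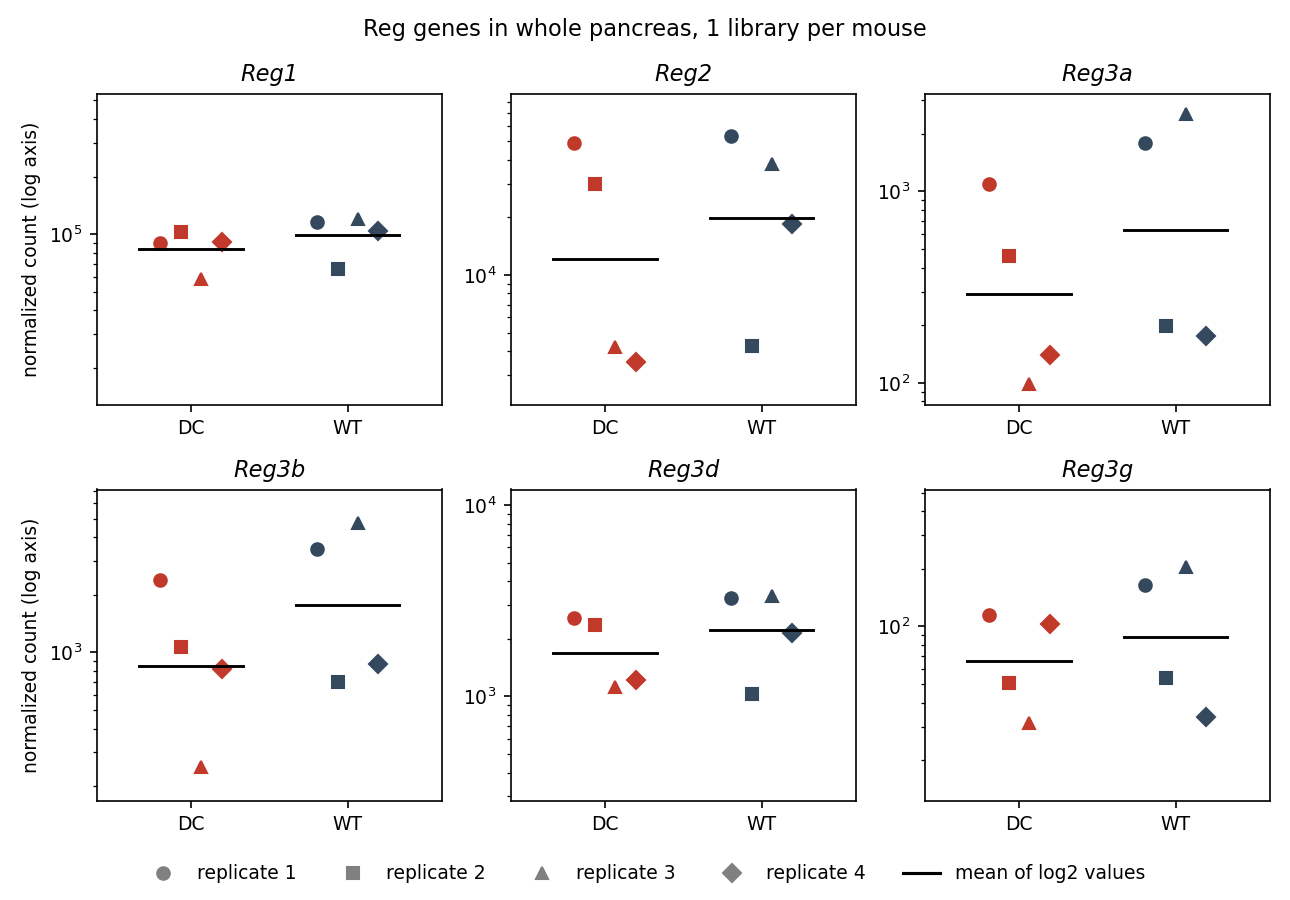
Normalized counts of each Reg gene in 4 DC (left, red) and 4 WT (right, dark blue) libraries, on log axes that span the same fold in every panel, where bars mark the mean of the log2 values and symbols the replicate. In every panel the DC and WT points overlap, from Reg1 with 58137 to 120405 counts to Reg2 with 3497 to 53273 counts.

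Per kilobase of reference transcript the order of the levels was Reg1, Reg2, Reg3d, Reg3b, Reg3a and Reg3g. Reg1 was above Reg2 in 8 of 8 libraries, by 1.67-fold to 23.7-fold, and Reg2 above Reg3d in 8 of 8, by 3.23-fold to 21.3-fold. Reg3d and Reg3b were neighbours whose order was not fixed. Reg3d was higher in 6 of 8 libraries, all 4 DC and 2 WT, and the ratio of Reg3d to Reg3b ran from 0.707 to 4.44. Reg3b was above Reg3a in 8 of 8 libraries, by 1.97-fold to 6.16-fold, and Reg3a above Reg3g in 8 of 8, by 1.27-fold to 11.5-fold. Mean levels per kilobase were 111384 ± 25088 in DC and 132436 ± 32164 in WT libraries for Reg1, and 97.1 ± 52.1 in DC and 148 ± 108 in WT libraries for Reg3g (SD, n = 4 each).

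The series asks how basal expression in the pancreas differs when Daxx is deleted. No Reg gene passed the test for a difference between the genotypes. Limma on log2(normalized count + 1) called 0 of 6 members at an adjusted p under 0.05, and 0 of 10468 genes (0%). Before adjustment 0 of 6 members had p under 0.05, against 302 of all tested genes (2.88%), of which 164 were lower in DC (1.57%). The count test of edgeR called 0 of 6 members and 0 of all genes, where 299 had an unadjusted p under 0.05. DESeq2 called 0 of 6 members and 1 of all genes (0.00955%), Bglap3, where 219 had such a p. In all 6 members the mean of the DC libraries was below that of the WT libraries, while 51.9% of all tested genes had a log2 fold change below 0. The 6 genes varied together from animal to animal, so they are not 6 separate observations of a direction. The DC and WT libraries overlapped in all 6 members, whereas 1.87% of all tested genes had no overlap and 1.04% had all DC values below all WT values.

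The point estimates were widest apart for Reg3a and Reg3b. Reg3a averaged 449.9 ± 463 normalized counts in DC and 1175 ± 1179 in WT pancreas (SD, n = 4 each), and its log2 fold change was -1.12 ± 0.82 (SE) within a 95% interval from -2.87 to 0.63. Reg3b averaged 1133 ± 906 in DC and 2444 ± 1987 in WT pancreas, and its log2 fold change was -1.06 ± 0.62 (SE) within an interval from -2.37 to 0.26. The exact two-sided permutation test over the 70 relabellings, whose smallest possible p is 0.0286, gave p = 0.429 for Reg3a and p = 0.286 for Reg3b. Limma gave an adjusted p of 0.9997 for both. The SD of log2 values between animals of 1 genotype, 1.83 for Reg3a and 1.37 for Reg3b, was larger than either difference. Leaving out DC replicate 3 brought the log2 fold change of Reg3b to -0.47 and that of Reg3a to -0.61, and leaving out DC replicate 1 brought them to -1.55 and -1.76. Without WT replicate 3 Reg3a stood at -0.45.

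Reg2 averaged 21625 ± 21950 normalized counts in DC and 28483 ± 21563 in WT pancreas (SD, n = 4 each), with a log2 fold change of -0.72 ± 0.80 (SE) and an interval of -2.43 to 0.99. In the count models its log2 fold change was nearer 0, at -0.39 in edgeR and -0.39 in DESeq2. Those models gave values further from 0 than limma for Reg3a (-1.38 in both) and Reg3b (-1.10 in edgeR, -1.11 in DESeq2). The same held for Reg3d (-0.42 and -0.43) and Reg3g (-0.62 and -0.61), and Reg1 stayed close (-0.24 and -0.25). Leaving out 1 library moved the limma value of Reg2 between -1.46 (without WT replicate 2) and -0.12 (without DC replicate 4). Reg1 averaged 85654 ± 19293 in DC and 101843 ± 24734 in WT pancreas, a log2 fold change of -0.24 ± 0.21 (SE) whose interval, -0.69 to 0.20, was the narrowest of the 6. Reg3d had a log2 fold change of -0.39 ± 0.33 (SE) and an interval of -1.09 to 0.32, and Reg3g had -0.42 ± 0.50 (SE) and an interval of -1.48 to 0.64. Without 1 library the values ran from -0.44 (without WT replicate 2) to -0.07 (without DC replicate 3) for Reg1. They ran from -0.76 to -0.19 for Reg3d without the same libraries, and from -0.88 (without WT replicate 4) to -0.02 (without WT replicate 3) for Reg3g. Limma's adjusted p was 0.9997 for each of these 4 genes. Exact permutation p-values were 0.600 for Reg2, 0.429 for Reg1, 0.429 for Reg3d and 0.543 for Reg3g. With a covariate for the level of Y-linked genes, since both sexes were present, the log2 fold changes were -0.24 for Reg1, -0.74 for Reg2, -1.14 for Reg3a, -1.07 for Reg3b, -0.39 for Reg3d and -0.42 for Reg3g, and none was called.

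**Figure D2:**
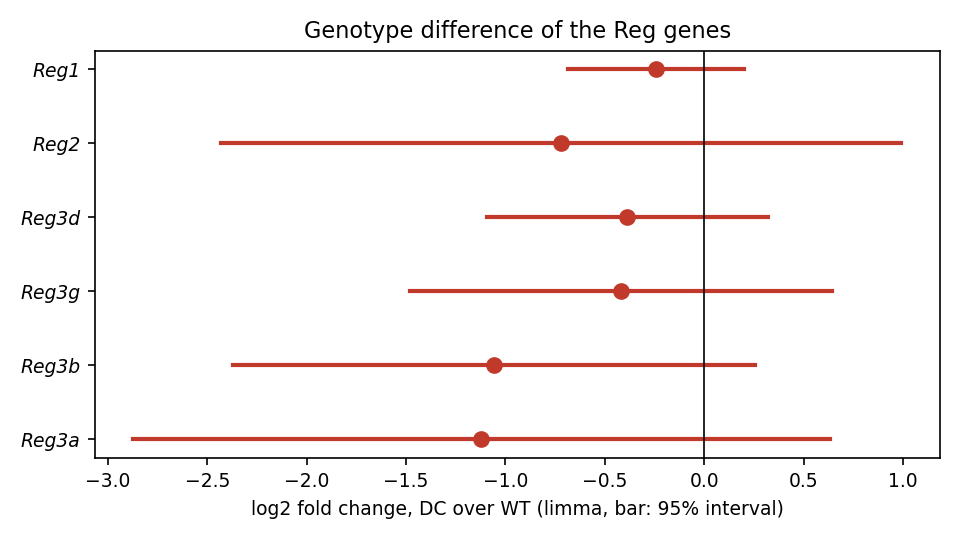
Log2 fold change of DC over WT for each Reg gene (points) with limma's 95% interval (bars), on log2(normalized count + 1). All 6 points lie below 0, from -0.24 for Reg1 to -1.12 for Reg3a, and all 6 intervals include 0.

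The larger feature of the family was its spread between animals of the same genotype. The SD of log2 values around the genotype mean was 1.83 for Reg3a, 1.79 for Reg2, 1.37 for Reg3b, 1.07 for Reg3g, 0.72 for Reg3d and 0.38 for Reg1, against a median of 0.27 over all tested genes. Ranked by this SD among 10468 genes, Reg3a was number 12, Reg2 number 14, Reg3b number 31 and Reg3g number 68. Reg3d was number 345, also above the 95th percentile of 0.65, and Reg1 number 2681. At the depth of these libraries counting error alone corresponds to an SD of 0.02 for Reg2, 0.05 for Reg3b and 0.09 for Reg3a. In bulk tissue fewer cells that make a transcript and less of it per cell cannot be told apart.

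**Figure D3:**
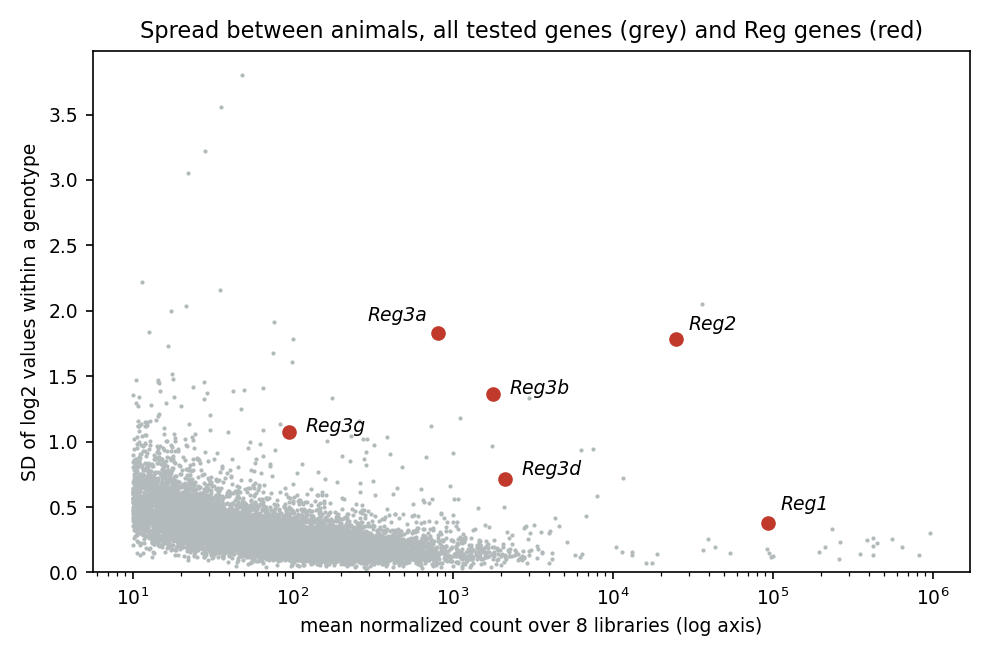
SD of log2 values within a genotype against the mean normalized count (log axis) for all 10468 tested genes (grey) and the Reg genes (red). Reg2 (SD 1.79), Reg3a (1.83), Reg3b (1.37) and Reg3g (1.07) lie far above the median of 0.27, and Reg1 lies at 0.38.

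Animals were high or low in the members together. In 5 of the 6 genes, all but Reg1, the 3 libraries with the highest counts were DC replicate 1, WT replicate 1 and WT replicate 3. DC replicate 3 was the lowest library in Reg1, Reg3a, Reg3b and Reg3g, DC replicate 4 in Reg2 and WT replicate 2 in Reg3d. Across the 8 libraries, with each genotype centred on its own mean, Pearson's r of log2 values between members ran from 0.50 to 0.97 over 15 pairs, with a median of 0.82. Of all pairs of tested genes 1.75% reached the median and 15.1% reached the lowest of these values. Each r is a description over 8 libraries, in which the values of a pair of genes come from the same RNA and the same depth.

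Likeness in RNA level did not follow likeness in sequence in every pair. Reg2 and Reg3d, with coding sequences 58.0% identical, had the highest r, 0.97, and a Spearman rho of 0.90. Reg3a and Reg3b had r = 0.95 and rho = 0.88, and Reg3b and Reg3g had r = 0.89 and rho = 0.83. The lowest values were those of Reg3g with Reg2 (r = 0.50, rho = 0.52), with Reg3d (r = 0.58, rho = 0.71) and with Reg1 (r = 0.60, rho = 0.64). Without the 2 libraries farthest from the median of Reg2, r of Reg2 and Reg3d stayed at 0.97. Without those farthest from the median of Reg3a, r of Reg3a and Reg3b was 0.90. Without the 2 libraries farthest from the median of Reg1, its r was 0.40 with Reg2, 0.58 with Reg3a, 0.46 with Reg3b, 0.57 with Reg3d and 0.35 with Reg3g. The r of Reg3d and Reg3g was 0.35 without the 2 farthest from the median of Reg3d. Within each genotype the log2 values around the genotype mean spanned most across members in replicate 4. DC replicate 1 (0.10 for Reg1 to 2.01 for Reg2) and WT replicate 3 (0.28 for Reg1 to 2.00 for Reg3a) also spanned widely. In DC replicate 2 only Reg3g (-0.37) lay below the genotype mean. DC replicate 4 was below its genotype mean in Reg2 (-1.79 on the log2 scale), Reg3a (-1.05) and Reg3d (-0.48), near it in Reg3b (-0.06) and Reg1 (0.12), and above it in Reg3g (0.63). WT replicate 4 was near its genotype mean in Reg2 (-0.12), Reg3d (-0.04) and Reg1 (0.07), and well below it in Reg3a (-1.84), Reg3b (-1.03) and Reg3g (-1.37).

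**Figure D4:**
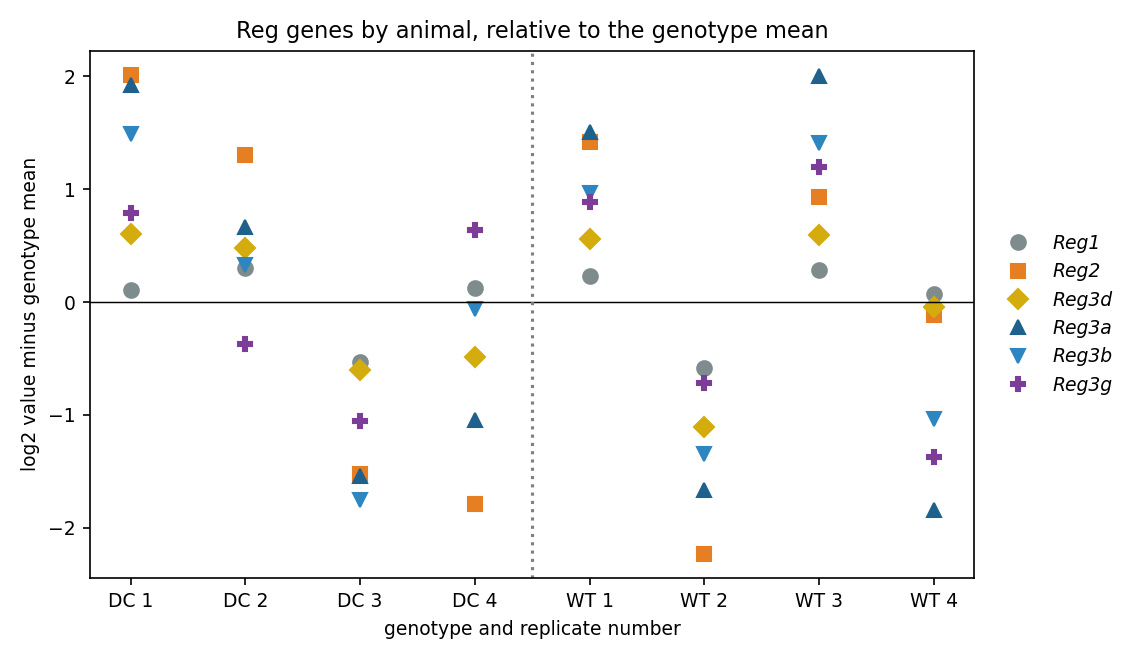
Log2 values of the 6 Reg genes minus the mean of their genotype, by library, with DC left and WT right of the dotted line. DC replicate 1 and WT replicates 1 and 3 lie above 0 in all 6 genes, DC replicate 3 and WT replicate 2 lie below 0 in all 6, and the genes lie apart in DC replicate 4 (-1.79 to 0.63) and WT replicate 4 (-1.84 to 0.07).

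**Figure D5:**
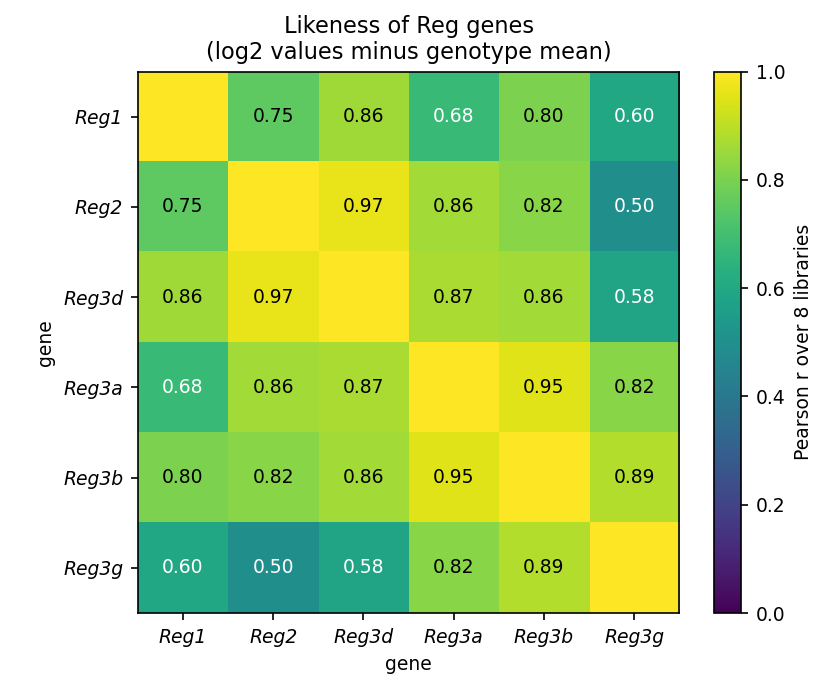
Pearson's r between Reg genes over 8 libraries, on log2 values minus the genotype mean. Values run from 0.50 (Reg2 and Reg3g) to 0.97 (Reg2 and Reg3d), and the 3 lowest values are those of Reg3g with Reg2, Reg3d and Reg1.

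The listed genes nearest the cluster lay megabases away and had mostly lower r with the members. The nearest listed gene on the side of lower coordinates, Gm9008, had r between -0.73 and -0.07 with the 6 members. The nearest on the other side, Gcfc2, had r between -0.08 and 0.35. Both were low, with means of 15.7 and 18.6 normalized counts. The next genes outward were Suclg1, with a mean of 307 and r between 0.09 (Reg3a) and 0.55 (Reg1), and Mrpl19, with a mean of 40.2 and r between -0.54 and -0.03. The r of Suclg1 with Reg1 was above the lowest r between members.

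Genes outside the family with the most similar patterns were found by r over the same 8 centred libraries. For Reg3b they were Mtmr10 (r = 0.99), the tryptophanyl-tRNA synthetase gene Wars (0.98) and Cpeb4 (0.97), which encodes a translation regulator that binds RNA. For Reg3a they included the cell adhesion gene Nfasc (0.98) and the transcription kinase gene Cdk12 (0.96). For Reg3d they were Tbc1d15 (0.98), Itih4 (0.97), which encodes an acute-phase protein made in liver, and Zkscan1 (0.97). For Reg2 they were Cped1 (0.98), Eogt (0.97) and 2610301B20Rik (0.97). For Reg3g they were Filip1l (0.95), Phf8 (0.93) and Naprt (0.93), and for Reg1 Wdr44 (0.99), Hnrnph2 (0.98) and Ubfd1 (0.98). With 10462 other genes to choose from, values this high are partly the result of picking the highest: between 10 (Reg3g) and 105 (Reg1) genes had r over 0.9 with a member.

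Nfasc shows how close such a match was to Reg3a. It had 684, 445, 273 and 322 normalized counts in DC replicates 1 to 4, and 659, 250.4, 989 and 265 in WT replicates 1 to 4. The libraries low in Reg3a were low in Nfasc, over a narrower range.

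The cytokine route to Reg induction was in part expressed, and none of its genes passed the test between genotypes. Of 33 genes for cytokines, receptors and signal carriers, 26 were tested and 0 called, 10 above and 16 below 0, with a median log2 fold change of -0.01, as over all tested genes. The cytokine genes Il6, Il11, Il22, Lif and Osm, and Il22ra2 and Socs1, were not analysed here. Extl3, a proposed receptor of Reg proteins, averaged 1770.2 ± 197 normalized counts in DC and 1780.3 ± 139 in WT pancreas (SD, n = 4 each). Lifr, the receptor of leukaemia inhibitory factor, averaged 1566 ± 181 in DC and 1580.4 ± 164 in WT pancreas. The shared receptor subunit gene Il6st averaged 566 ± 37.8 in DC and 585 ± 46.9 in WT, and the kinase gene Jak1 500.2 ± 32.6 in DC and 519 ± 8.77 in WT. Il22ra1, the IL-22 receptor subunit gene, was the 1 of 26 tested genes with an unadjusted p under 0.05, where 2.88% of all tested genes had one, and was picked after its value was seen. It averaged 363 ± 50.5 in DC and 454 ± 33.7 in WT pancreas, a log2 fold change of -0.33 with an adjusted p of 0.9997 in limma.

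Stat3 itself followed the Reg genes from animal to animal. It had 442, 415, 257 and 355 normalized counts in DC replicates 1 to 4, and 451, 243, 523 and 348 in WT replicates 1 to 4. Its r was 0.94 with Reg3b and with Reg3d, 0.93 with Reg1, 0.88 with Reg3a, 0.86 with Reg2 and 0.76 with Reg3g. Among the 10462 genes outside the family it ranked number 12 for Reg3b and number 193 for Reg2. It was described apart from its list after its values were seen. Its mean was 367 ± 81.8 in DC and 391 ± 122 in WT pancreas. Of 15 tested genes on a list of Stat3 and its targets 0 were called, 4 above and 11 below 0, with a median log2 fold change of -0.06. Among them 1 gene, Cebpd, had an unadjusted limma p under 0.05, where 2.88% of all tested genes had one. Cebpd, which encodes a C/EBP transcription factor and is named for that p, averaged 13.0 ± 7.08 normalized counts in DC and 21.1 ± 2.84 in WT pancreas (SD, n = 4 each). The summed level of the list had r of 0.56 to 0.90 with the members, and the median r over its single genes was 0.04 to 0.30. Stat3 itself is part of that sum, and no sum without it was made. The 3 most abundant genes on the list beside Stat3 were the survival gene Mcl1, the growth factor gene Vegfa and the proliferation gene Myc. Mcl1 had r of 0.48 (Reg3g) to 0.96 (Reg1) with the members, Vegfa -0.58 (Reg1) to -0.33 (Reg3g) and Myc -0.17 (Reg1) to 0.52 (Reg3a).

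Other genes that respond to pancreatic injury or in the acute phase were not called between genotypes either, and varied with the Reg genes in both directions. Of 42 such genes 22 were tested and 0 called, 8 above and 14 below 0, with a median log2 fold change of -0.11 against -0.01 over all tested genes. Genes of strong inflammation such as Saa3, Lcn2, Il1b, Cxcl1 and Ccl2 were not analysed here. With an unadjusted limma p under 0.05 there were 2 of the 22, where 2.88% of all tested genes had one. Both had the DC mean lower and neither was called. Spink1, the trypsin inhibitor gene, averaged 5033 ± 649 normalized counts in DC and 6540 ± 267 in WT pancreas (SD, n = 4 each), with a limma adjusted p of 0.9997. All its DC values lay below all its WT values, as in 1.04% of all tested genes. Lbp, the lipopolysaccharide-binding protein gene, picked for its p, averaged 13.4 ± 7.66 in DC and 22.8 ± 4.80 in WT pancreas. The summed level of the list had r of -0.70 to -0.02 with the 6 members, and the median r over its single genes was -0.02 to 0.25. Most of that sum was Tff2, Clu, Spink1 and Nupr1, with means of 10453, 6417, 5787 and 4362 normalized counts over all libraries. Of the 22 single genes 12 had r above 0 with Reg3b and 11 with Reg2, against 50.3% and 50.1% of all genes outside the family. Among its most abundant genes the trefoil factor gene Tff2 had r = -0.42 with Reg3b and -0.75 with Reg2, Clu -0.26 and -0.48, Spink1 -0.26 and -0.54, and the stress gene Nupr1 -0.52 and -0.87. Itih4, on this list as well, had 914, 762, 227 and 420.0 normalized counts in DC replicates 1 to 4, and 1208, 214, 1598 and 565 in WT replicates 1 to 4. By these counts its order of libraries was the same as that of Reg3d, and on genotype-centred log2 values rho was 0.95.

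Summed levels of cell type markers were set beside the Reg genes over the same 8 libraries. The summed level of the 25 acinar markers was 4880783 to 6884380.3 normalized counts in DC and 6013698 to 6764158 in WT libraries, and its r with the members ran from -0.85 (Reg2) to -0.02 (Reg3g). The median r over the single acinar markers ran from -0.66 (Reg2) to -0.12 (Reg3g). These markers hold a large part of each library's reads, and no r was computed under another scaling. Of 14 macrophage markers 13 were listed, with sums of 366 to 859.7 in DC and 453 to 710.2 in WT libraries and r of -0.0009 to 0.52. Of 10 adipocyte markers 8 were listed, with sums of 122 to 725 in DC and 209 to 434 in WT libraries and r of -0.08 to 0.54. Of 20 gut markers the 4 listed summed to 28.3 to 61.4 in DC and 33.9 to 87.6 in WT libraries, with r of -0.37 to -0.02. The 10 endothelial markers summed to 852 to 1058 in DC and 837 to 1109.9 in WT libraries, with r of -0.76 (Reg1) to -0.06 (Reg3a). The 14 stromal markers summed to 4794 to 7195 in DC and 4442 to 6572 in WT libraries, with r of -0.22 to 0.13. Of 14 ductal markers 13 were listed, with sums of 9832 to 12792 in DC and 11043 to 13281 in WT libraries and r of -0.73 to 0.06. Most of that sum was Tff2, with a mean of 10453 normalized counts over all libraries, and the median r over the single ductal markers was -0.02 (Reg1) to 0.22 (Reg3a). Of 17 islet markers 15 were listed, with sums of 1809.6 to 7899 in DC and 2284 to 8235 in WT libraries and r of -0.18 to 0.09. The median r over single markers was -0.14 to 0.08 for islet, 0.05 to 0.20 for stroma, -0.44 to -0.04 for endothelium, -0.0009 to 0.40 for macrophages, -0.20 to 0.55 for adipocytes and -0.32 to -0.04 for gut epithelium. The part of these cells in the spread of the Reg genes was not tested.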

How the data were processed

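RNA of whole pancreas was sequenced from strand-specific total RNA libraries (TruSeq Stranded Total RNA, per the labels' protocols). The authors deposited 1 signal value per gene and library, read counts divided by a size factor. Reads were handled with STAR 2.6.0b and DESeq2 on GRCm38, per the submitters' processing notes. The sources used here name no read counter and no gene filter. Each value divided by its library's step gave a whole read for 100% of values (tolerance 0.001).

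Genes with a mean of at least 10 entered limma 3.58.1 (R 4.3.3, trend option) on log2(value + 1), with genotype as the only term, two-sided p-values and Benjamini-Hochberg adjustment over 10468 genes. Fold changes on this scale understate those of low genes. Count models on those whole reads (edgeR 4.0.16; DESeq2 1.42.0), other pseudocounts, scalings, filters and weights, and each library left out were alternatives. The fits were tested on simulated counts in which randomly chosen genes were changed. That does not show what they detect in genes that vary as widely as most Reg genes. Positions and transcript lengths are from GENCODE M21; 11781 of 11789 gene IDs matched without version.

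The members and gene lists were chosen with earlier results of these data known. Besides the members, the text names the 3 genes most like each member by r (1 of these is not reported here), the 4 most abundant tested genes of each list, some of which are given only as part of a sum, and a few that the text marks as picked once their values were known. Replicate numbers follow accession order and link no animals across genotypes. P-values weigh the difference between genotypes against the spread between these libraries.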

Additional observations from a re-analysis of the deposited data

Results flagged for a closer look

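Each group of 4 libraries of the 6 Reg genes and of the other genes chosen by the naming rule, 136 groups in all, was searched for a library far from its other 3 by Dixon's criterion. No Reg gene had such a library in its 12 groups. Of all groups 9 had one, where chance gives 6.8 at 1 in 20. In DC pancreas these were Fabp4, with 124 normalized counts in replicate 2 against 57.3 to 58.8 in the other DC libraries, Il6st, with 622 in replicate 1 against 545 to 549, and Plvap, with 197 in replicate 1 against 142 to 149. In WT pancreas they were Apoa1, with 45.2 in replicate 4 against 2.64 to 7.83 in the other WT libraries, Lyz2, with 232 in replicate 1 against 146 to 158, Vegfa, with 337.5 in replicate 1 against 428 to 437, and 3 genes in replicate 2. The last were Eogt, with 31.3 against 48.7 to 51.1, Mcl1, with 347 against 506 to 529.6, and Pecam1, with 171 against 144 to 148.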

How the results depend on the processing

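Each Reg gene was recomputed under 19 alternatives: 11 settings and 8 fits without 1 library each. All 6 genes kept a log2 fold change below 0 and an adjusted p above 0.05 in all 19. Over these the log2 fold change ran from -0.44 to -0.07 for Reg1, -1.46 to -0.12 for Reg2, -1.76 to -0.45 for Reg3a, -1.55 to -0.47 for Reg3b, -0.76 to -0.19 for Reg3d and -0.88 to -0.02 for Reg3g, and the ends were set by leaving out a library. Some fits without 1 library gave an unadjusted limma p under 0.05: Reg3d, Reg3b and Reg1 without WT replicate 2, Reg3a and Reg3b without DC replicate 1, and both without WT replicate 4. These p-values ran from 0.0098 to 0.0498, and the adjusted p from 0.985 to 0.9998. The share of all tested genes with such a p in these fits is not given here, and the members varied together. The number of genes called was 0, and 1 (Bglap3) with equal library totals, robust moderation, the Y-linked covariate or DESeq2; the cause was not tested. Over the fits without 1 library it was 0 to 1. Equal library totals moved the median log2 fold change of all genes to 0.11. The median share of reads on the Reg genes was 1.56%, and 0.333% without Reg1, by construction. Depth limits Reg3g most, with 30 reads in its lowest library.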

Other observations

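Many genes of acinar enzymes ran opposite to Reg2. Of the 25 acinar markers 6 had r above 0 with it, up to 0.73 for Ctrc, against 50.1% of all genes outside the family. The lowest were the elastase gene Cela3b (-0.97), the carboxypeptidase gene Cpa1 (-0.90) and Ctrb1 (-0.89), picked for these values. The acinar markers hold a large part of each library's reads, so their normalized values depend on how libraries were scaled. No r was computed under another scaling, and the part of scaling in these values was not tested. Of all 10462 genes outside the family Try4, which encodes an abundant trypsinogen, had the lowest r with Reg2, -0.98 over 8 centred libraries and -0.79 without centring. It had 294533, 312375, 399322 and 447451 normalized counts in DC replicates 1 to 4, and 354028, 498418, 389380.5 and 396741 in WT replicates 1 to 4. Gm10334, which was also chosen after its values were seen, had r = -0.98 with Reg2 (-0.84 without centring) and covered a wider range. It had 217, 269, 749 and 1243 normalized counts in DC replicates 1 to 4, and 96.1, 317, 87.6 and 149.6 in WT replicates 1 to 4. With Reg3d the r of Try4 was -0.91 and with Reg3g -0.33. Trypsinogen genes are near copies of each other, so reads may be divided among them wrongly.

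The ratio of Reg3b to Reg3a, per kilobase of transcript, was 2.29, 2.45, 2.68 and 6.16 in DC replicates 1 to 4, and 2.04, 3.71, 1.97 and 5.21 in WT replicates 1 to 4. Replicate 4 of both genotypes stood apart upwards, and these numbers link no animals. The ratio of Reg3b to Reg3g was 7.81 to 20.8 in DC and 12.8 to 25.4 in WT libraries.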
